A study of Mus musculus with 6 samples.

Results

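The transcripts described here encode mRNA decay factors of 3 related groups: the Zfp36 family (Zfp36, Zfp36l1 and Zfp36l2), the Btg genes (Btg1, Btg2 and Btg3) and the Tob genes (Tob1 and Tob2). The 8 genes were chosen by name and matched by symbol and Ensembl gene ID. They are 8 of the 55335 genes measured, and all 8 were among the 12860 genes that reached a mean of 1 FPKM (fragments scaled to transcript length and library total) over the 6 libraries and were tested. Polyadenylated RNA came from lysates of whole mouse sciatic nerve at postnatal day 14, a stage at which Schwann cells are wrapping axons in myelin. The icKO mice were RhoAfl/fl ChATCreERT2+ (n = 3) and the control mice were RhoAfl/fl (n = 3), so both groups were homozygous for the floxed allele of RhoA, a small GTPase that controls the actin cytoskeleton. CreERT2 is a drug-inducible recombinase, here expressed from the choline acetyltransferase gene, which cholinergic neurons use, spinal motoneurons among them. The cell bodies of those neurons lie in the spinal cord, so the nerve holds their axons together with Schwann cells and the cells of vessels and connective tissue. The comparison asks how transcripts of the nerve differ when RhoA deletion is aimed at motoneurons. The labels give neither the sex, the litters, the induction schedule, nor whether controls received the inducing drug, and they do not say that the libraries came from separate animals. The p-values therefore measure only the spread between these samples, which may be technical.

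Zfp36 proteins carry a pair of CCCH zinc fingers that bind AU-rich elements in the 3′ untranslated region (UTR) of short-lived mRNAs, such as those of cytokines and early response genes, and recruit the CCR4-NOT deadenylase complex, which removes the poly(A) tail. Btg and Tob proteins have no RNA-binding domain of the zinc finger kind; they share a domain that binds the CCR4-NOT catalytic subunits Cnot7 and Cnot8, Tob proteins also bind cytoplasmic poly(A)-binding protein, and the family was first known for slowing cell proliferation. Zfp36 and Btg2 are themselves textbook early response genes, and Btg2 is a known target of p53.

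Depth, estimated from the smallest steps of the deposited values, was 17200000 to 20600000 fragments per library, and 12394 to 12830 genes reached 1 FPKM. The members rested on an estimated 85.6 fragments (the lowest library for Btg3) to 2780 fragments (the highest library for Zfp36l2). Pearson's r of log2(FPKM + 1) across genes was 0.953 to 0.982 between libraries of a group and 0.889 to 0.914 between groups. Rhoa itself had 33.2 to 36.4 FPKM in icKO nerves and 36.5 to 39.0 FPKM in control nerves, a log2 difference of -0.13 that was not called (limma adjusted p = 0.195). Chat was listed at 0 in every library except control replicate 1 (0.0123 FPKM), and the summed motoneuron markers stayed at or below 0.0808 FPKM, so the deletion could not be checked in this tissue. Summed levels of the 7 Schwann cell markers were 19600 to 22000 FPKM in icKO nerves and 17400 to 21000 FPKM in control nerves, with none of these markers at 0. Other marker sums moved with the groups: 765 to 786 FPKM in icKO nerves against 913 to 1810 FPKM in control nerves for 6 fibroblast markers, and 18.1 to 38.9 FPKM against 99.8 to 116 FPKM for 5 adipocyte markers. Endothelial markers summed to less in each icKO library (lowest 68.7 FPKM) than in any control library (lowest 87.8 FPKM). Mural cell markers summed to 86.2 to 120 FPKM in icKO nerves and 145 to 210 FPKM in control nerves. Of the 6 fibroblast markers 1 was called higher and 3 lower, and of 6 endothelial markers 1 higher and 3 lower. Schwann cell markers were called higher in 2 and lower in 3 of 7. Adipocyte markers were called lower in 5 of 5 and mural cell markers in 2 of 4. Of those 5 adipocyte markers, 1 reached the mean of 1 FPKM needed for testing only through the control libraries. Its means were 0.0539 FPKM in icKO nerves and 3.09 FPKM in control nerves. Over all tested genes 20.8% were called higher and 22.1% lower. Skeletal muscle markers were high in icKO replicate 3 (1190 FPKM) and control replicate 1 (982 FPKM). The other libraries had 8.04 and 19.4 FPKM in icKO nerves and 193 and 267 FPKM in control nerves. Leaving out the 2 libraries rich in muscle transcripts thus does not even out these markers, as the remaining control libraries hold more of them. The part of these differences in the results was not tested, and in whole nerve fewer cells of a type and less RNA per cell cannot be told apart.

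Of the 8 members, 4 rose in icKO nerves (Zfp36, Btg1, Btg2 and Tob2), none fell and 4 were not called. A gene was called at a Benjamini-Hochberg adjusted p under 0.05 over all tested genes in limma on log2(FPKM + 1), the scale of every log2 difference given here. None of the members had a lower level at an unadjusted p under 0.05 in that test either (0 of 8). Over all tested genes 20.8% were called higher, 22.1% lower and 42.9% in either direction. In 6 of the 8 members every icKO library lay above every control library, against 28.4% of all tested genes. The members that rose came from all 3 groups, with 1 Zfp36 gene, 2 Btg genes and 1 Tob gene among them. Without the libraries rich in muscle transcripts, icKO replicate 3 and control replicate 1, 4 members rose and 1 fell. That 1 member was Zfp36l2, with a log2 difference of -0.39 (adjusted p = 0.0475).

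**Figure D1:**
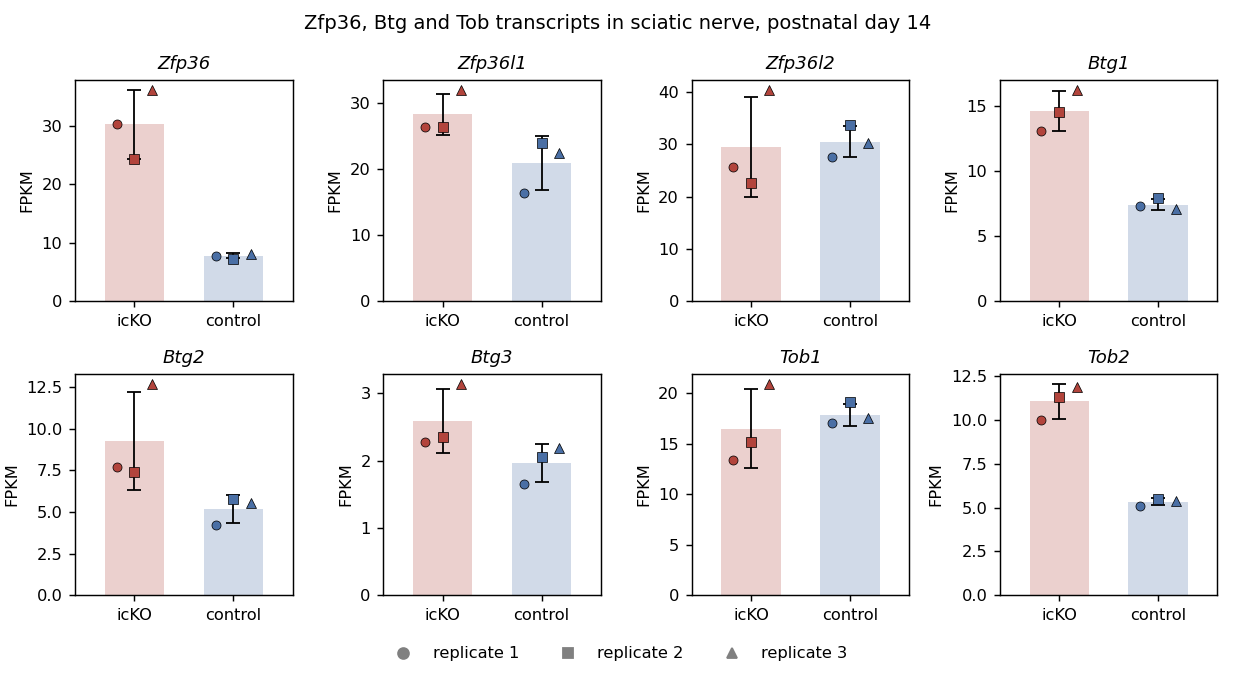
FPKM of the 8 genes in each library, with icKO nerves at the left and control nerves at the right of each panel; points are libraries, bars are means and error bars are SD (n = 3). Zfp36 lies at 24.4 to 36.1 FPKM in icKO nerves and 7.32 to 8.17 FPKM in control nerves, and icKO replicate 3 (triangle) is the highest library in all 8 panels.

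Zfp36, which encodes tristetraprolin, the founding member of its family and a destabiliser of Tnf mRNA, showed the largest difference of the 8. Zfp36 (ENSMUSG00000044786) had 30.3, 24.4 and 36.1 FPKM in icKO nerves, against 7.81, 7.32 and 8.17 FPKM in control nerves. The groups did not overlap, and the control libraries lay close together while the icKO libraries spread more. The means were 30.3 ± 5.87 FPKM in icKO nerves and 7.76 ± 0.428 FPKM in control nerves (SD, n = 3 each), a ratio of 3.9. The log2 difference was 1.82 (SE 0.14, limma adjusted p = 0.00058), and 0.568% of tested genes had a larger one. Zfp36 overlaps the antisense gene Gm44710 in the annotation. Gm44710 had 4.72, 3.56 and 3.57 FPKM in icKO nerves, against 1.14, 1.27 and 1.42 FPKM in control nerves. This antisense gene also rose, with a log2 difference of 1.11 (adjusted p = 0.00112). The handling of strand is not given in the sources used here, so reads of the pair cannot be told apart, although the values listed for Zfp36 are several times those of Gm44710 in every library.

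The promoter of Zfp36 is shown because this gene moved most. It is given 5′ to 3′ on the strand of the gene, from 250 bases before to 50 bases after the RefSeq start (GRCm38.p6, chr7:28379179-28379478, minus strand), with its CArG box, the site bound by serum response factor, in capitals.
Zfp36 promoter: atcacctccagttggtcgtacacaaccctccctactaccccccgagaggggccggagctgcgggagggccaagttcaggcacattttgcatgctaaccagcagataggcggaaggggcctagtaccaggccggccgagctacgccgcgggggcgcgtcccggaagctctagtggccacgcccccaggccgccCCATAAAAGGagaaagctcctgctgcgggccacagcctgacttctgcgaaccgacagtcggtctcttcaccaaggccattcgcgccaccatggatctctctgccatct
The CArG box begins at position -58 from the start and reads CCATAAAAGG. Motifs were searched on both strands of these 300-base windows, and no other motif searched overlaps it. Of all 32851 RefSeq promoters, 1.63% hold a CArG box. Among the 7 members with a promoter entry, Zfp36 is the 1 whose promoter does. A match describes letters and not binding.

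Zfp36l1 and Zfp36l2, whose proteins also bind AU-rich elements, were not called. Zfp36l1 (ENSMUSG00000021127) had 26.5, 26.5 and 32.0 FPKM in icKO nerves, against 16.4, 24.0 and 22.5 FPKM in control nerves. The groups did not overlap, but control replicate 2 lay near the icKO libraries and control replicate 1 well below the other controls. The log2 difference of Zfp36l1 was 0.43 (SE 0.16, limma adjusted p = 0.0647) and was not called. The call was made under median-of-ratios scaling (adjusted p = 0.0353) and quantile scaling (adjusted p = 0.0472). The difference was 0.27 without control replicate 1 (adjusted p = 0.126). Without the 2 libraries rich in muscle transcripts it was 0.18 (adjusted p = 0.158). Zfp36l2 (ENSMUSG00000045817) had 25.6, 22.5 and 40.3 FPKM in icKO nerves, against 27.6, 33.6 and 30.3 FPKM in control nerves. The control libraries lay inside the range of the icKO libraries, whose highest value was icKO replicate 3. The log2 difference of Zfp36l2 was -0.09 (SE 0.21, adjusted p = 0.763). Zfp36l3 was at most 0.0719 FPKM in any library.

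The make-up of the Zfp36 family did not overlap between the groups for Zfp36 and Zfp36l2. FPKM is per length, so levels may be compared between genes. Zfp36 held 36.8, 33.2 and 33.3% of the family's summed FPKM in icKO nerves, against 15.1, 11.3 and 13.4% in control nerves. Zfp36l2 held 31.1, 30.6 and 37.2% in icKO nerves, against 53.2, 51.7 and 49.7% in control nerves, and was the most abundant family member in every control library. The share of Zfp36l1 overlapped between the groups, at 29.5 to 36.2% in icKO nerves and 31.7 to 37.0% in control nerves. The family sum was 82.5, 73.4 and 108 FPKM in icKO nerves and 51.8, 64.9 and 61.0 FPKM in control nerves, without overlap. Shares of a sum are tied to each other, so the share of Zfp36l2 falls where Zfp36 rises, and the level of Zfp36l2 was not called. These shares and sums are descriptions without a test.

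**Figure D2:**
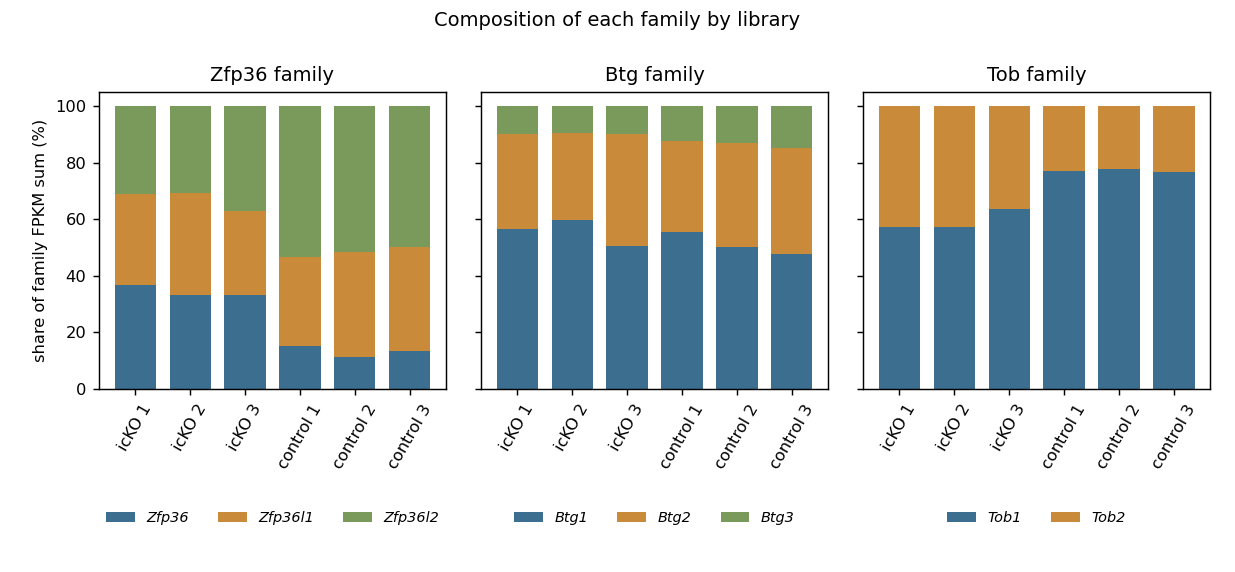
Share of each gene in the summed FPKM of its family, in percent, for the 3 icKO libraries and then the 3 control libraries. Zfp36 takes 33.2 to 36.8% of its family in icKO nerves and 11.3 to 15.1% in control nerves, and Tob2 takes 36.4 to 42.8% of the Tob sum in icKO nerves and 22.3 to 23.5% in control nerves.

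Each Zfp36 family transcript carries in its own 3′ UTR the nonamer that its protein family prefers, TTATTTATT in the letters of the transcript file (GENCODE M21, GRCm38). It is shown with 10 bases on each side, in capitals, because it is the site this family binds.
Zfp36: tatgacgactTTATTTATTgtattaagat
Zfp36l1: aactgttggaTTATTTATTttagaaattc
Zfp36l2: actatttaacTTATTTATTatcttgtgaa
Each UTR holds 1 nonamer, at base 589 of 774 in Zfp36, base 1404 of 1835 in Zfp36l1 and base 821 of 1822 in Zfp36l2. The 3′ UTRs of the 5 Btg and Tob members hold 0. Among the 11316 tested genes with an annotated 3′ UTR, 7.71% hold at least 1 nonamer, and 7.29% of those with a UTR of 1000 to 2000 bases do.

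Btg1 and Btg2, antiproliferative partners of the deadenylase, rose. Btg1 (ENSMUSG00000036478) had 13.1, 14.5 and 16.2 FPKM in icKO nerves, against 7.31, 7.92 and 7.06 FPKM in control nerves. No icKO library came near the controls, and the means were 14.6 ± 1.54 FPKM in icKO nerves and 7.43 ± 0.437 FPKM in control nerves (SD, n = 3 each), a ratio of 1.96. The log2 difference of Btg1 was 0.88 (SE 0.1, limma adjusted p = 0.00119). Btg2 (ENSMUSG00000020423) had 7.72, 7.43 and 12.7 FPKM in icKO nerves, against 4.22, 5.81 and 5.53 FPKM in control nerves. Replicate 3 stood above the other icKO libraries, and the groups did not overlap. The means of Btg2 were 9.27 ± 2.94 FPKM in icKO nerves and 5.19 ± 0.85 FPKM in control nerves, with a log2 difference of 0.70 (SE 0.21, adjusted p = 0.0326). The Btg2 call was lost without control replicate 1 (adjusted p = 0.0922), without control replicate 2 (0.0564), without control replicate 3 (0.0705) and with no filter on low values (0.0724). Its log2 difference was 0.48 without icKO replicate 3 (adjusted p = 0.0344) and 0.36 without the 2 libraries rich in muscle transcripts (adjusted p = 0.0336).

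Btg3, the third of the Btg genes, was the least abundant member. Btg3 (ENSMUSG00000022863) had 2.28, 2.36 and 3.14 FPKM in icKO nerves, against 1.65, 2.05 and 2.19 FPKM in control nerves. The groups were adjacent without overlap, and the log2 difference of 0.27 (SE 0.13, limma adjusted p = 0.125) was not called. Btg3 overlaps Cxadr on the opposite strand, which had 2.16 to 3.51 FPKM in icKO nerves and 2.37 to 2.97 FPKM in control nerves, so part of its reads cannot be told apart. Btg4, the germline member, was at most 0.0393 FPKM. Btg1 was the most abundant of the 3, with 56.6, 59.7 and 50.5% of the Btg sum in icKO nerves and 55.5, 50.2 and 47.8% in control nerves, ranges that overlap. Btg3 held 9.88, 9.72 and 9.81% of that sum in icKO nerves, against 12.5, 13.0 and 14.8% in control nerves, without overlap. Its share was thus lower although its own FPKM was higher in every icKO library than in any control library.

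The promoters of the Btg genes that rose are shown with their matches in capitals, on the strand of the gene in the same RefSeq windows (GRCm38.p6). For Btg1 (chr10:96616751-96617050, plus strand) the capitals mark a FoxO site, GTAAACA read on the reverse strand, and a TATA box. For Btg2 (chr1:134079106-134079405, minus strand) they mark a cAMP response element, TGACGTCA.
Btg1 promoter: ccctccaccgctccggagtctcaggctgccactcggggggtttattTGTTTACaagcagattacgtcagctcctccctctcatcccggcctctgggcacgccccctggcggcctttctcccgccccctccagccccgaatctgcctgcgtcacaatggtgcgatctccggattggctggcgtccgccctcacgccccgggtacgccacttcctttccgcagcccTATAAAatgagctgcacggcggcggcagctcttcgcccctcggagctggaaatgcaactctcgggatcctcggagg
Btg2 promoter: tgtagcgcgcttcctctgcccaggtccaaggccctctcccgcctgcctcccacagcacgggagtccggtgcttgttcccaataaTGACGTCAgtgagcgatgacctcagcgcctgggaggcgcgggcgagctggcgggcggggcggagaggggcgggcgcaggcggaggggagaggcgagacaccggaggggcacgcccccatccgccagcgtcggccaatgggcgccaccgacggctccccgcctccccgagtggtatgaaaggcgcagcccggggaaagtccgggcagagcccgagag
The FoxO site begins at -204 and the TATA box, searched as TATAAA, at -26 in Btg1, and the cAMP response element begins at -166 in Btg2. Of all promoters 3.65% hold the FoxO site, 13.6% the TATA box and 1.79% the cAMP response element. No motif searched was found in more than 1 of the promoters of Zfp36, Btg1, Btg2 and Tob2, the 4 members that rose. In Tob2 none of the 8 motifs was found, which says only that these letters are not in its window. The TATA box was also found in Zfp36l1 and Tob1, which were not called, and an AP-1 site (TGANTCA, 7.81% of promoters) in Zfp36l1. An NF-kB site (4.51% of promoters) was found in Btg3, which was not called either. Zfp36l2 had no promoter entry and was not searched.

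Of the Tob genes 1 rose and 1 was not called. Tob2 (ENSMUSG00000048546) had 9.97, 11.3 and 11.9 FPKM in icKO nerves, against 5.11, 5.48 and 5.39 FPKM in control nerves. Both groups were tight and far apart, with means of 11.1 ± 1.01 FPKM in icKO nerves and 5.33 ± 0.193 FPKM in control nerves (SD, n = 3 each), a ratio of 2.08. The log2 difference of Tob2 was 0.93 (SE 0.09, limma adjusted p = 0.000792). Tob1 (ENSMUSG00000037573), its paralogue, had 13.4, 15.2 and 20.9 FPKM in icKO nerves, against 17.0, 19.1 and 17.5 FPKM in control nerves. The control libraries lay within the icKO range, and the log2 difference was -0.13 (SE 0.16, adjusted p = 0.531). Without icKO replicate 3 Tob1 was called lower, at -0.30 (adjusted p = 0.0479). Tob2 held 42.6, 42.8 and 36.4% of the Tob sum in icKO nerves, against 23.1, 22.3 and 23.5% in control nerves, while the sum itself overlapped, at 23.4 to 32.8 FPKM in icKO nerves and 22.1 to 24.6 FPKM in control nerves.

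The order of the mean levels differed between the groups. In icKO nerves Zfp36, Zfp36l2 and Zfp36l1 (means of 30.3, 29.5 and 28.4 FPKM) overlapped in their libraries, followed by Tob1 at 16.5 FPKM and Btg1 at 14.6 FPKM, which overlapped, then Tob2 at 11.1 FPKM and Btg2 at 9.27 FPKM, which overlapped, and Btg3 at 2.59 FPKM. In control nerves Zfp36l2 (30.5 FPKM) stood above all other members in every library. Zfp36l1 (21.0 FPKM) and Tob1 (17.9 FPKM) came next and overlapped, then Zfp36 (7.76 FPKM) with Btg1 (7.43 FPKM), then Tob2 (5.33 FPKM) with Btg2 (5.19 FPKM), and Btg3 (1.96 FPKM). Zfp36 thus lay below 3 other members in control nerves and below none in icKO nerves by the means.

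Library by library, icKO replicate 3 held the highest value of all 8 members. It also had the highest summed skeletal muscle markers (1190 FPKM) and neutrophil markers (5.3 FPKM, with 0.109 to 0.878 FPKM elsewhere). Control replicate 1, the other library rich in muscle transcripts, held the lowest value of 4 members. Leaving out icKO replicate 3 gave log2 differences of 1.69 for Zfp36, 0.81 for Btg1, 0.48 for Btg2 and 0.88 for Tob2, each still called.

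**Figure D3:**
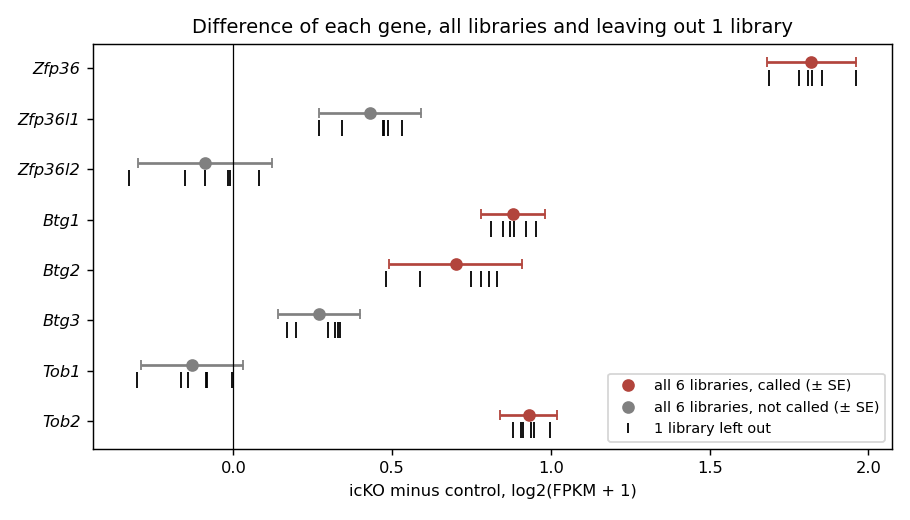
Log2 difference, icKO minus control, of each gene: circles with SE bars use all 6 libraries (red where called), and ticks below each circle are the values with 1 library left out. Zfp36 stays at 1.69 to 1.96, Btg1 at 0.81 to 0.95 and Tob2 at 0.88 to 1.0, whereas Zfp36l2 spans -0.33 to 0.08.

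Across the 6 libraries, Zfp36, Btg1 and Tob2 followed each other, with Pearson's r of log2(FPKM + 1) of 0.97 (Zfp36 and Btg1), 0.98 (Zfp36 and Tob2) and 0.99 (Btg1 and Tob2). Btg2 and Btg3 gave 0.97 and Zfp36l2 and Tob1 gave 0.88, but Zfp36 and Zfp36l2 gave -0.02. These values are descriptions over 6 libraries that share the difference between the groups. Of all tested genes, those most like Zfp36 were H3f3b (r = 0.998), which encodes a histone H3.3, and Pitpnm1 (0.998). H3f3b had 159, 143 and 177 FPKM in icKO nerves and 92.3, 87.7 and 91.3 FPKM in control nerves. Most like Tob2 were the metal transporter gene Slc39a14 (r = 0.999) and Tmem248 (0.998), and most like Btg1 were Lgalsl (0.999) and Echdc3 (0.999). Slc39a14 had 5.11, 6.23 and 6.77 FPKM in icKO nerves and 1.87, 2.06 and 1.85 FPKM in control nerves. The nearest genes to Btg2 were BC005561 (0.998) and Grpel1 (0.997), and to Btg3 Fbxw11 (0.997) and Thumpd1 (0.995). For Zfp36l1 they were 6430548M08Rik (0.995) and Uap1 (0.990), for Zfp36l2 Mllt1 (0.997) and Ptk2 (0.996), and for Tob1 Myo1c (0.986) and Hgs (0.979).

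The members act through deadenylases, and 7 of the 14 tested genes of deadenylases and of the other subunits of their complexes, such as scaffolds, rose in icKO nerves while 0 fell (0 also at an unadjusted p under 0.05 in limma; 1 of the 15 listed genes was below the filter). For comparison, 20.8% of all tested genes were called higher, 22.1% lower and 42.9% in either direction. The median log2 difference of the list was 0.31, against -0.01 over all tested genes. Parn, a poly(A)-specific ribonuclease, had 12.7 to 17.8 FPKM in icKO nerves and 4.61 to 5.69 FPKM in control nerves (log2 difference 1.34, limma adjusted p = 0.000985). Pan2, the catalytic subunit of the Pan2-Pan3 deadenylase, had 8.20 to 11.3 FPKM in icKO nerves and 4.38 to 4.76 FPKM in control nerves (0.92, adjusted p = 0.00177). Cnot6, a catalytic subunit of CCR4-NOT, rose by 0.66 (adjusted p = 0.00237). Of the direct Btg/Tob partners, Cnot7 had 7.13 to 9.85 FPKM in icKO nerves and 5.05 to 6.53 FPKM in control nerves (0.42, adjusted p = 0.0472), and Cnot8 had 17.7 to 21.5 FPKM in icKO nerves and 18.1 to 21.5 FPKM in control nerves (-0.04, adjusted p = 0.755). The Cnot7 call was lost in 12 of 20 alternatives, among them leaving out any library other than icKO replicate 1 (adjusted p of 0.0366 to 0.124 over the 6). Cnot1, the scaffold to which Zfp36 proteins bind, differed by 0.04 (adjusted p = 0.795). Without control replicate 3 the number of genes of this list called higher was 4.

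Pabpc1, the main cytoplasmic poly(A)-binding protein gene, rose, with 54.2 to 77.1 FPKM in icKO nerves and 36.2 to 38.5 FPKM in control nerves (log2 difference 0.72, limma adjusted p = 0.00692). The genes of its inhibitors Paip2 (-0.47, adjusted p = 0.048) and Paip2b (-0.28, adjusted p = 0.0187) fell, the other 3 of the 6 genes were not called, and the list median was 0.02. Paip2 lost its call without icKO replicate 2 or any 1 control library (adjusted p up to 0.133), and Paip2b without icKO replicate 1, control replicate 2 or control replicate 3 (up to 0.081). Decapping and 5′-to-3′ decay genes moved both ways: 7 of 19 rose and 3 fell, with a median of 0.02. These are 36.8% and 15.8%, and the poly(A)-binding list had 16.7% and 33.3%. Over all tested genes 20.8% were called higher and 22.1% lower. Lsm5 (0.64), Dcp1a (0.54) and Edc4 (0.54), which encode a ring subunit, an activator and a scaffold of decapping, rose (adjusted p of 0.00183, 0.00291 and 0.00299). Dcp2, the decapping enzyme gene, fell by 0.44 with 3.61 to 4.10 FPKM in icKO nerves and 5.53 to 5.64 FPKM in control nerves (adjusted p = 0.00481). Lsm6 (-0.61, adjusted p = 0.005) and the scavenger decapping enzyme gene Dcps (-0.60, adjusted p = 0.0153, and 0.0548 without control replicate 3) also fell. Without icKO replicate 3, 5 genes of this list were called lower, and without control replicate 3, 2.

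In the exosome and its Ski partners, which degrade mRNA 3′ to 5′, 3 of 13 genes rose and 1 fell. These are 23.1% and 7.69%, against 20.8% called higher and 22.1% lower over all tested genes. Skiv2l, a helicase of the Ski complex, had 18.2 to 20.4 FPKM in icKO nerves and 11.6 to 12.2 FPKM in control nerves (log2 difference 0.65, limma adjusted p = 0.00139). The nuclease gene Dis3 rose by 0.40 (adjusted p = 0.00946, and 0.052 without the 2 libraries rich in muscle transcripts), the core subunit gene Exosc5 by 0.26 (adjusted p = 0.0347), and Wdr61 fell by 0.31 (adjusted p = 0.0424). Exosc5 and Wdr61 each lost their call without icKO replicate 1, icKO replicate 2 or any 1 control library (adjusted p up to 0.108 and 0.144). Of 13 other RNA-binding regulators of mRNA stability 3 rose and 1 fell, again 23.1% and 7.69%. Elavl1 (HuR), which stabilises AU-rich mRNAs in competition with Zfp36 proteins, had 5.79, 3.13 and 6.60 FPKM in icKO nerves and 2.52, 2.84 and 2.66 FPKM in control nerves (0.70, adjusted p = 0.041). Hnrnpd (AUF1; 0.31, adjusted p = 0.0293) and Rc3h1 (Roquin-1; 0.30, adjusted p = 0.0247) also rose, and Tia1 fell by 0.74 (adjusted p = 0.0157). Each of these 4 calls was lost when some libraries were left out in turn: Elavl1 without any but icKO replicate 2, Hnrnpd without any but icKO replicate 1, Rc3h1 without any but icKO replicate 3, and Tia1 without icKO replicates 1 or 2 or control replicates 2 or 3 (adjusted p up to 0.119, 0.0847, 0.079 and 0.0575).

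The p38-MK2 kinases phosphorylate tristetraprolin, 14-3-3 proteins bind its phosphorylated form and the phosphatase PP2A reverses the mark. Of these 14 genes 2 rose and 7 fell, with a median log2 difference of -0.39. Among all tested genes 20.8% were called higher and 22.1% lower, with a median of -0.01. Mapkapk2, which encodes MK2, had 34.6 to 40.7 FPKM in icKO nerves and 25.0 to 26.8 FPKM in control nerves (0.49, limma adjusted p = 0.00592). Every other kinase gene of the list had a lower mean in icKO nerves, with log2 differences of -0.80 to -0.39 (adjusted p of 0.0279 to 0.0583). Only the gene with an adjusted p of 0.0279 was called, and the groups overlapped for the gene at -0.80. The genes at -0.39 had means of 0.768 FPKM in icKO nerves and 1.31 FPKM in control nerves. They passed the filter only through the control libraries, so being tested at all depended on the higher control level. The 14-3-3 genes named by smallest p among those that fell were Ywhaq, Ywhab and Ywhae. Ywhaq had 30.3, 24.2 and 32.8 FPKM in icKO nerves and 86.8, 89.4 and 44.8 FPKM in control nerves (-1.26, adjusted p = 0.0116, and 0.05 without the 2 libraries rich in muscle transcripts), with control replicate 3 nearest to the icKO libraries. Ywhab (-0.56, adjusted p = 0.0116) and Ywhae (-0.55, adjusted p = 0.0182) fell less, and Ywhae was not called without control replicate 1 or control replicate 2 (adjusted p up to 0.0574). The epithelial 14-3-3 gene Sfn rose, with 3.57, 5.55 and 7.95 FPKM in icKO nerves and 3.16, 1.55 and 0.622 FPKM in control nerves (1.32, adjusted p = 0.0298), and lost its call without icKO replicates 2 or 3 or control replicates 2 or 3 (adjusted p up to 0.0791). The number of genes in this list called lower was 3 without icKO replicate 1, control replicate 2 or control replicate 3, and 2 with a muscle covariate.

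**Figure D4:**
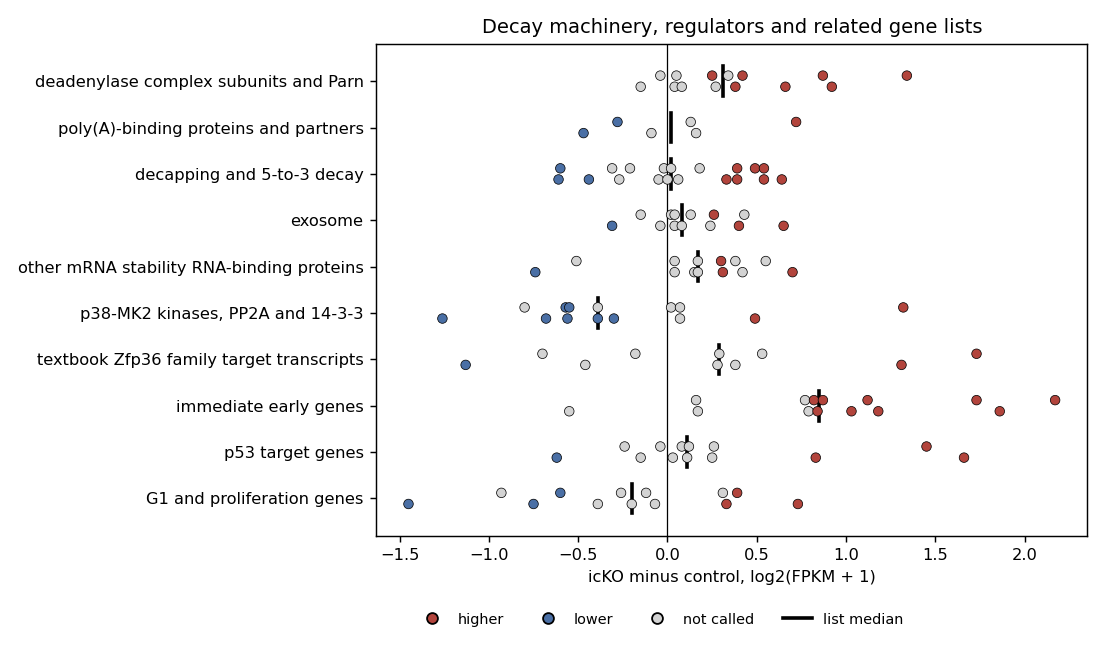
Log2 difference, icKO minus control, of each tested gene in the lists of decay machinery, regulators and related genes; each point is a gene, colour gives the call and the black bar the list median. The medians are 0.31 for deadenylases and their complexes, -0.39 for p38-MK2 kinases, PP2A and 14-3-3 and 0.85 for immediate early genes, against -0.01 over all tested genes.

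Known targets of the Zfp36 family were mostly too low to test, as 10 of 23 listed transcripts passed the filter, and Tnf and Csf2 were not among them. Of the 10, 2 rose, 1 fell and 7 were not called, with a median log2 difference of 0.29. That is 20.0% higher and 10.0% lower, against 20.8% and 22.1% over all tested genes. Dusp1, a MAP kinase phosphatase gene, had 12.4, 12.5 and 16.8 FPKM in icKO nerves, against 4.25, 5.16 and 5.63 FPKM in control nerves (1.31, limma adjusted p = 0.00119). Fos had 15.9, 6.01 and 35.7 FPKM in icKO nerves, against 3.44, 5.05 and 3.44 FPKM in control nerves (1.73, adjusted p = 0.0418). The icKO libraries of Fos ran apart from each other, and its call was lost without any 1 library other than icKO replicate 2 (adjusted p up to 0.109). Without icKO replicate 3, 3 of these genes were called lower and 1 higher. The nonamers of the targets that rose are set out like those of the Zfp36 family itself, with the nonamer in capitals.
Fos: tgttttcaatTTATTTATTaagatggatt
Dusp1 upstream site: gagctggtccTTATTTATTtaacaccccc
Dusp1 downstream site: gtttttacctTTATTTATTtttgtgtagg
These sites lie at bases 655 of 815 in Fos and at bases 103 and 392 of 690 in Dusp1.

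Over the whole table, transcripts with the nonamer were spread much as the others were. Of 873 tested genes with at least 1 nonamer 20.3% were called higher and 20.0% lower, with a median log2 difference of -0.005. Of 10443 tested genes without it 19.6% were called higher and 23.4% lower, with a median of -0.03. Genes with the nonamer had longer UTRs (median 2365 bases, against 1090 bases without). With UTRs of 1000 to 2000 bases, 23.9% of 213 genes with a nonamer were called higher and 20.2% lower, against 19.2% and 23.5% of 2710 genes without. The medians in that range of lengths were 0.061 with a nonamer and -0.031 without. With 2 or more nonamers, 18.2% of 192 genes were called higher and 22.4% lower, with a median of -0.031. These are counts without a test, and the nonamer is 1 of several kinds of AU-rich element.

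**Figure D5:**
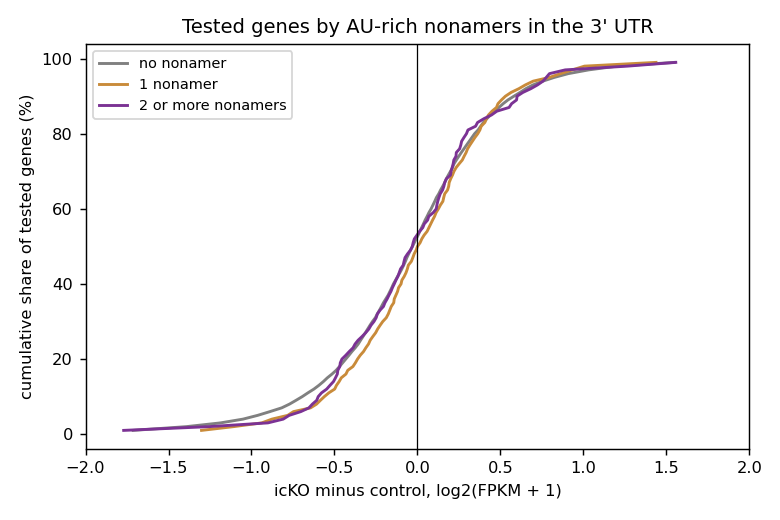
Cumulative share of tested genes, in percent, against the log2 difference, icKO minus control, for genes with no nonamer, 1 nonamer and 2 or more nonamers in the 3′ UTR. The curves nearly coincide near 0, with medians of -0.03, 0.0 and -0.031.

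Zfp36 and Btg2 belong to the immediate early genes, whose transcription responds to stimuli within minutes. Of 14 other immediate early genes 9 rose and 0 fell, with a median log2 difference of 0.85, and by limma at an unadjusted p under 0.05 the list had 10 higher and 1 lower. The called shares were 64.3% and 0%, against 20.8% and 22.1% over all tested genes. Gadd45g had 10.6, 8.91 and 11.9 FPKM in icKO nerves, against 3.70, 4.16 and 4.22 FPKM in control nerves (1.18, limma adjusted p = 0.000827). The orphan nuclear receptor genes Nr4a3 (1.03, adjusted p = 0.00126) and Nr4a2 (1.12, adjusted p = 0.00521) also rose. Nr4a3 had 1.38 to 1.88 FPKM in icKO nerves and 0.295 to 0.367 FPKM in control nerves. It passed the filter of a mean of 1 FPKM only through the icKO libraries. Another of the 9 did so too, with means of 1.65 FPKM in icKO nerves and 0.39 FPKM in control nerves. For such genes, being tested at all depended on the higher icKO level. Nr4a2 had 42.6, 38.9 and 55.1 FPKM in icKO nerves, against 24.2, 15.4 and 21.9 FPKM in control nerves. As with the 8 members, icKO replicate 3 was the highest library for Gadd45g, Nr4a2, Nr4a3 and Fos. The count of early genes called higher was 6 without icKO replicate 3, 6 without icKO replicate 1 and 6 without the 2 libraries rich in muscle transcripts, and 1 was called lower without icKO replicate 3 or without control replicate 1.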

How the data were processed

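Polyadenylated RNA of 6 sciatic nerve libraries was sequenced, and sample titles and genotypes gave the groups and replicate numbers. The authors deposited 1 table of FPKM values, fragments scaled to transcript length and library total, so a few abundant transcripts lower all others. Per the submitters' processing notes the build was GRCm39 and the tools included StringTie 1.3.1c, STAR, DESeq2 1.16.1 and FastQC 0.11.2, with no role given for any; the annotation, strand handling and treatment of multimapping reads have no statement there. Symbols, transcript lengths and 3′ UTRs came from GENCODE M21 (GRCm38), matched by gene ID for 55154 of 55335 genes; 181 had no symbol. Promoters came from RefSeq (GRCm38.p6), with entries for 7 of the 8 members. Builds differ, so coordinates refer only to the printed promoters.

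The table holds no counts; depth was estimated from the steps between the lowest FPKM values of 34186 genes with 1 transcript, and no count test was run. Testing in limma 3.58.1 (R 4.3.3) covered all genes averaging 1 FPKM or more; it was two-sided, with a variance trend and no covariate, on log2(FPKM + 1), which understates changes of low genes. P-values were adjusted by Benjamini-Hochberg over the 12860 tested genes. The procedure was tested on simulated data. The members and lists were chosen with earlier results of these data known. Named genes are the 8 members, called genes of each list (where a direction has more than 4, the 3 with the smallest p), Cnot1, Cnot7, Cnot8 and Pabpc1, the 2 genes most correlated with each member, and Rhoa and Chat; 1 gene that the rule names is not reported here. Alternatives were other pseudocounts, filters, scalings, variance models and thresholds, a replicate block, a muscle covariate, and libraries left out.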

Additional observations from a re-analysis of the deposited data

How the results depend on the processing

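Zfp36, Btg1 and Tob2 were called higher in all 20 alternatives, with log2 differences of 1.69 to 1.96, 0.80 to 0.97 and 0.85 to 1.05. Leaving out 1 library in turn gave 3 to 4 members called higher and 0 to 1 called lower, 3728 to 5476 genes called, 1857 to 2534 called higher and 1871 to 2942 called lower. Without the 2 libraries rich in muscle transcripts 1 member was called lower. With a filter of at least 5 FPKM, which tests fewer genes, 3308 genes were called, 1696 higher and 1612 lower. Among the members and the other list genes named, directions reversed only for 4 that were not called: with a muscle covariate Zfp36l2 gave 0.15 and Tob1 0.0557, without icKO replicate 2 Zfp36l2 gave 0.0799 and Cnot8 0.0185, without control replicate 1 Cnot1 gave -0.0422, and leaving out 1 library gave Zfp36l2 -0.33 to 0.0799, Cnot1 -0.0422 to 0.0904 and Cnot8 -0.12 to 0.0185. With array weights Cnot1 gave -0.0398 and Cnot8 0.0322, and without the 2 muscle-rich libraries Cnot1 gave -0.0732. The cause was not tested. Same-numbered libraries did not deviate together (r of -0.103, 0.043 and -0.055), and not every library correlated best with its own number. With the replicate block 4596 genes were called, 2272 higher and 2324 lower, and 4 members higher. Depth limits Btg3 most, with an estimated 85.6 to 184 fragments; it was not tested with the filter at 5 FPKM.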

Other observations

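Btg2 is a p53 target and the Btg/Tob proteins were first described as antiproliferative, so the related lists are given as values. Of 13 tested p53 target genes 3 rose, 1 fell and 9 were not called, with a median log2 difference of 0.11, against -0.01 over all tested genes. Called shares were 23.1% higher and 7.69% lower, against 20.8% and 22.1% over all tested genes. Trp53inp1, a p53-induced nuclear protein gene, had 18.0, 25.5 and 16.8 FPKM in icKO nerves, against 6.45, 5.04 and 5.30 FPKM in control nerves (1.66, limma adjusted p = 0.000948). Sesn1, a stress-response regulator of mTOR signalling, had 129, 169 and 95.3 FPKM in icKO nerves, against 56.9, 40.7 and 42.6 FPKM in control nerves (1.45, adjusted p = 0.00352). Cdkn1a, the cell cycle inhibitor p21, had 235, 248 and 240 FPKM in icKO nerves, against 146, 125 and 135 FPKM in control nerves (0.83, adjusted p = 0.00107). Unlike for Btg2, icKO replicate 2 was the highest library for these 3 genes. Ccng1, which encodes cyclin G1, fell by 0.62 (adjusted p = 0.00121).

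Of 13 tested genes of G1 and proliferation 3 rose and 3 fell, and 6 of the 19 listed were below the filter. Each direction held 23.1% of the tested genes of the list, against 20.8% higher and 22.1% lower over all tested genes. All 6 of these untested genes had less in every icKO library than in any control library, among them, named after their values were seen, the proliferation markers Mki67 and Top2a. The share of all untested genes that do so was not computed, so this count cannot be read as a result about the list. Mki67 had 0.179, 0.16 and 0.355 FPKM in icKO nerves, against 1.04, 1.43 and 1.23 FPKM in control nerves. Top2a had 0.0647, 0.124 and 0.215 FPKM in icKO nerves, against 0.879, 1.56 and 1.01 FPKM in control nerves. With no filter on low values 3 genes of the list were called higher and 8 lower, and without the 2 libraries rich in muscle transcripts 1 higher and 6 lower. Rb1, the retinoblastoma gene, had 17.1 to 17.9 FPKM in icKO nerves and 9.98 to 10.5 FPKM in control nerves (0.73, limma adjusted p = 0.000811). The cyclin genes Ccnd3 (0.39, adjusted p = 0.011) and Ccne2 (0.33, adjusted p = 0.0206) also rose, and Ccne2 lost its call without any 1 control library (adjusted p up to 0.0721). Without the 2 libraries rich in muscle transcripts neither was called (adjusted p of 0.0549 for Ccnd3 and 0.0815 for Ccne2). Ccnd2, the cyclin D2 gene, had 1.72, 1.0 and 1.85 FPKM in icKO nerves, against 4.07, 7.06 and 6.71 FPKM in control nerves (-1.45, adjusted p = 0.00306). Ccna2 (-0.60, adjusted p = 0.0108) and Mcm5 (-0.75, adjusted p = 0.0137) fell, and Mcm5 lost its call without control replicate 3 (adjusted p = 0.0525). Both lay near 1 FPKM, where values rest on few fragments. Their means were 0.751 (Ccna2) and 0.862 FPKM (Mcm5) in icKO nerves, against 1.66 and 2.14 FPKM in control nerves. Both passed the filter only through the control libraries, so being tested at all depended on the higher control level. Without icKO replicate 3, 5 genes of this list were called lower, and without control replicate 3, 2.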
